A study of Mus musculus with 5 samples.

Results

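The voltage-gated ion channel genes and the channel genes that share their names were taken by symbol from the protein-coding genes of GENCODE M21 on mm10: symbols that start with Kcn, with Scn and a number followed by a or b, with Cacna1 or Cacna2d, and with Cacnb, Cacng or Hcn and a number. The rule found 138 of 22028 protein-coding genes. A region was assigned to a gene when it overlapped the gene body or lay within 10 kb of it, which gave 82 of the 8038 regions of the deposited table. The prefix Kcn also takes in channels that are not gated by voltage, namely inward rectifiers, K2P leak channels and small-conductance calcium-activated channels, and these are described under their own families.

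Retinas of wild-type (WT) mouse embryos at E16.5 were pooled, 4 in each pool, and profiled by CUT&Tag, in which an antibody steers a transposase to the DNA next to its target. Libraries were made with rabbit anti-Pou4f1 (n = 2) and with rabbit IgG as the negative control (n = 2), and a library made with rabbit anti-H3K9AC (n = 1) was not analysed here. All groups carried the same genotype and stage, so the single comparison was that of antibodies, and it asked where near channel genes the signal of Pou4f1 exceeded that of IgG. The tissue was whole retina, in which Pou4f1-expressing ganglion cells are a minority, and no RNA was measured in this series, so neither the cell makeup nor the expression of any channel could be checked. The values are signal as deposited, with 1 value per region and library, and sequencing depth was not stated, so only the number of libraries bounds the precision. Since the authors chose the regions for their Pou4f1 signal, an excess over IgG in most of them follows in part from that choice.

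Voltage-gated channels open when the membrane potential changes. Sodium channels carry the rising phase of the action potential, potassium channels repolarise the membrane and set the firing pattern, and calcium channels couple depolarisation to transmitter release and gene transcription. HCN channels open on hyperpolarisation and carry a depolarising current. Pore subunits are assisted by auxiliary subunits that control trafficking and gating. Retinal ganglion cells are the only retinal neurons that send action potentials to the brain, and Pou4f1 (Brn3a) is a POU-homeodomain transcription factor that marks many of them.

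POU-homeodomain factors of the Pou4f class bind an AT-rich sequence. The motif searched here, on both strands, read ATN, then AAT, then A or T, then ATT, without gaps, where N is any base. The sequences below are the sites found in the central 200 bp of channel-gene regions, followed by those in the regions of highest Pou4f1 signal, where the site lay outside the central window. They were read from GRCm38.p6 (mm10), run 5′ to 3′ on the strand given, hold 10 bases on each side, and have the motif in capitals.
Cacna1c (intron 3, motif at chr6:118990245-118990254, + strand): tgggtatgggATTAATTATTaacctgcaat
Cacnb3 (upstream of the gene, motif at chr15:98628671-98628680, - strand): ctgctggaagATGAATTATTgaagagggcg
Kcnj6 (exon of a short transcript, motif at chr16:94823489-94823498, - strand): gggggaaagcATGAATTATTtacgtgtcaa
Kcnb2 (intron 2, motif at chr1:15637495-15637504, + strand): tagaggaggcATGAATAATTgattgagttt
Kcnc1 (internal start, motif at chr7:46422359-46422368, + strand): caagcgtggcATAAATAATTcataagtgga
Cacna2d2 (intron 1, motif at chr9:107417260-107417269, - strand): tcctctctgtATGAATTATTaaggctcatt
Kcnq3 (intron 1, motif at chr15:66239503-66239512, + strand): gaaggcagtgATGAATTATTcatagagaga

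In Kcnb2, Kcnc1 and Kcnq3 the opposite strand also held a match, 3 bp further along, because the motif written in reverse overlaps itself. Across the whole length of the 82 regions, 25 matches fell in 19 separate stretches, 6 of which read on both strands, in 18 regions. In the central 200 bp, 5 of 82 regions held the motif (6.10%, 95% exact interval 2.01 to 13.7%) against 4.41% of all 8028 regions on chromosomes. The share depended on position. Of the channel-gene regions away from any annotated transcription start, 4 of 37 held it (10.8%) beside 11.1% of all such regions, and at a start it was 1 of 45 (2.22%) beside 0.680%. In the central 400 bp the shares were 15.9% (8.72 to 25.6%) of channel-gene regions and 7.66% of all regions. Split by position they were 29.7% (15.9 to 47.0%) and 19.1% away from a start. At a start they were 4.44% (0.543 to 15.1%) and 1.28%, so within each position the interval held the share of all regions. Over the whole region away from a start they were 43.2% (27.1 to 60.5%) and 26.1%, and here the interval lay above the share of all regions. At a start they were 4.44% (0.543 to 15.1%) and 2.70%. Whole regions are not windows of equal length, with a median away from a start of 978 bp in channel-gene regions and 939 bp in all. A match describes the letters of the sequence and was not tested for binding.

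Of the 138 channel genes, 61 had at least 1 region (44.2%, 95% exact interval 35.8 to 52.9%), beside a background of 34.8% over all protein-coding genes, against which each family below is read. Channel genes are long, with a median body of 42.0 kb against 17.3 kb for all coding genes, and no excess was seen among genes over 20 kb. Of channel genes over 100 kb, 25 of 44 had a region (56.8%) beside 56.9% of other coding genes over 100 kb. This class is not matched further, with a median body of 274 kb in channel genes and 167 kb in the others. Between 20 and 100 kb the numbers were 20 of 48 (41.7%) beside 41.2%, and under 20 kb they were 16 of 46 (34.8%, 21.4 to 50.2%) beside 26.1%. Counted per length of DNA, regions were no denser near channel genes, at 4.17 per Mb of gene body and flanks against 5.28 per Mb for all coding genes. Of the 61 genes, 43 had 1 region, 14 had 2 and 4 had 3 (Kcnab2, Cacna2d2, Kcnma1 and Kcnip1). For 12 genes the regions lay only at the start of another gene, and without these the share was 49 of 138 (35.5%) beside 29.0% of all coding genes.

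Among genes over 20 kb, regions at the gene's own start were less common than in other coding genes of the same length class. A region had its midpoint within 1 kb of an annotated start in 24 of 138 channel genes (17.4%, 11.5 to 24.8%) beside 24.9% of other coding genes. Over 100 kb the shares were 20.5% (9.80 to 35.3%) and 40.1%, and between 20 and 100 kb they were 14.6% (6.07 to 27.8%) and 31.9%. Under 20 kb they were 17.4% and 17.2%. In both longer classes the interval of the channel genes lay below the share of the other genes. The intervals treat genes as independent and cover counting error only, although some channel genes are neighbours.

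**Figure D1:**
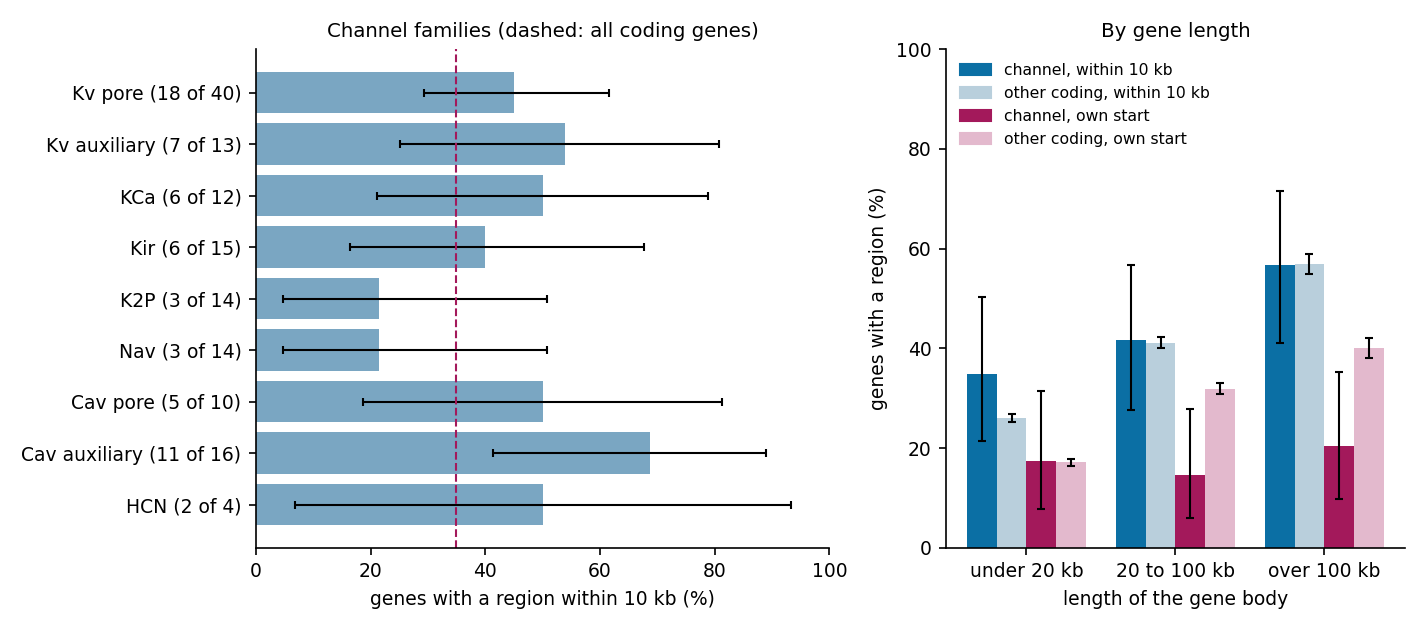
Share of genes with a Pou4f1 region in percent, with 95% exact binomial intervals as error bars. The left panel gives each channel family with its genes counted. The dashed line is the share of all coding genes (34.8%) and is not matched for gene length. The auxiliary calcium channel subunits (11 of 16) are the family whose interval lies above it, and their median body is 80.6 kb. The right panel gives channel genes beside other coding genes by length of the gene body, where the shares within 10 kb are alike over 20 kb and the shares at the gene's own start are lower in channel genes over 20 kb but not under it (17.4% and 17.2%).

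In the comparison with IgG, the lower of the Pou4f1 values exceeded the higher of the IgG values in 82 of 82 channel-gene regions, and the background over all regions was 96.5 percent. By limma on log2(signal + 1), with Benjamini-Hochberg adjustment over all 8038 regions, 53 of 82 regions (64.6%) were higher in Pou4f1 at an adjusted p under 0.05, and the background was 64.8 percent. None was lower, as every difference lay above 0 (1.68 to 9.40), so none was lower at an unadjusted p under 0.05 either. The background of lower regions was 0.224 percent. The median log2 difference was 5.06 for the channel-gene regions and 5.22 for all regions, so the channel genes as a whole sat at the level of the table. Median signal in channel-gene regions was 168.6 and 176.1 in Pou4f1 replicates 1 and 2. It was 5.89 in the library named IgG and 9.24 in the library named Negative8, taken as the second IgG library. Each IgG library was listed at 0 in 34 of the 82 regions, and this set much of the test. All 15 regions at 0 in both IgG libraries passed, 22 of 29 with neither at 0 passed, and 16 of 38 with a single library at 0 passed. The median residual SD on the log2 scale was 0.157, 0.782 and 2.0 in these 3 sets. With the first Pou4f1 replicate left out 19 of 82 passed, and with the second left out the count was again 19. The median log2 difference was 4.97 without the library named IgG and 5.67 without the library named Negative8. An exact permutation test of 2 against 2 cannot go below p = 0.333, so single regions rest on the limma fit.

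**Figure D2:**
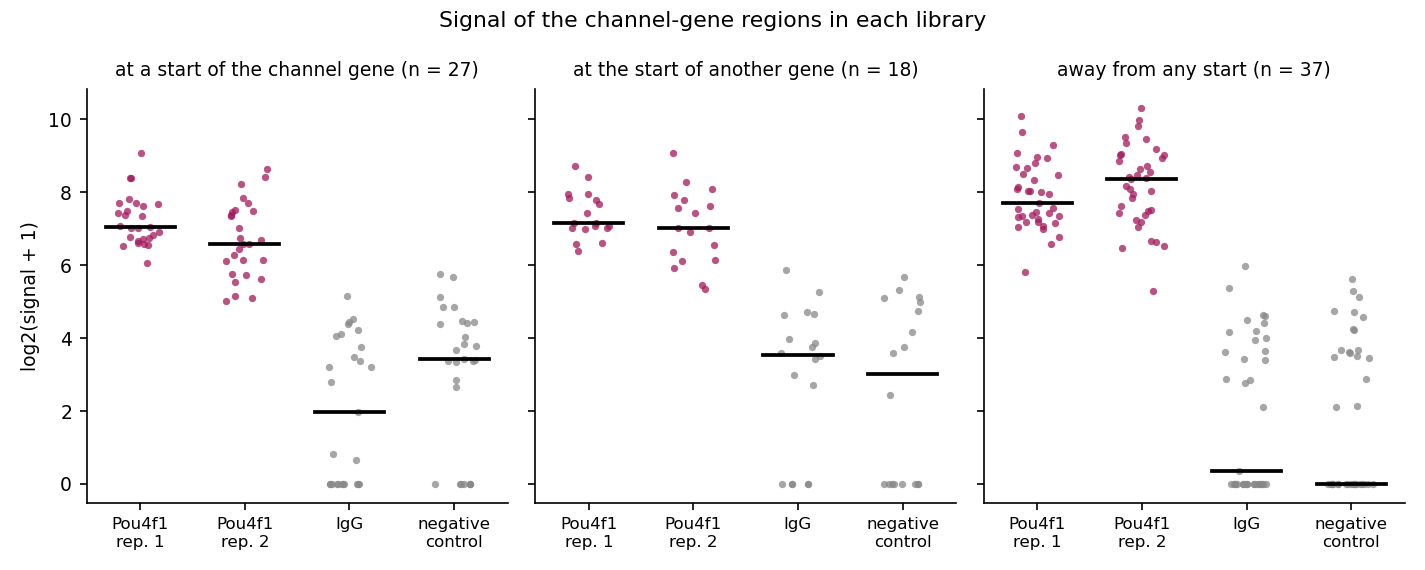
Signal of each channel-gene region on the scale log2(signal + 1) in the 4 libraries, split by position. Each point is a region and each bar the median of its column, and the label negative control marks the library named Negative8. Every Pou4f1 value of a region lies above its IgG values, and the regions away from any start (n = 37) reach the highest Pou4f1 signal while 18 and 19 of them are listed at 0 in the IgG libraries.

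The strongest regions lay away from transcription starts. Of the 82 regions, 27 had their midpoint within 1 kb of a start of the channel gene (32.9%), 18 at the start of a gene that is not a channel gene, 28 in an intron (34.1%), 6 upstream, 2 in an exon and 1 downstream. A start of any gene was thus near 54.9% (43.5 to 65.9%) of channel-gene regions and 64.1% of all regions, and introns held 34.1% (24.0 to 45.4%) beside 18.6%. Channel-gene regions were taken only from gene bodies and 10 kb around them, whereas 15.2% of all regions were intergenic. The shares are therefore not like for like, and the assignment rule alone can raise that of introns. Ranked by mean Pou4f1 signal, 9 of the top 10 channel-gene regions and 15 of the top 20 lay away from any start, and 18 of the bottom 20 lay at one. Median mean signal was 256 away from a start and 128 at one, and over all regions of the table the medians were 212 and 158. Of the 37 regions away from a start 31 were higher in Pou4f1 than in IgG (83.8%, all such regions 69.6%), and of the 45 at a start 22 were (48.9%, all such regions 62.1%). Intronic regions were far from the gene's own starts, at a median of 37.3 kb and up to 325 kb, and 23 of 28 were over 10 kb away. The first intron held 12 of them and the second held 9. Of the 27 regions at an own start, 13 overlapped the coding sequence of the gene and 5 also held the start of another gene.

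**Figure D3:**
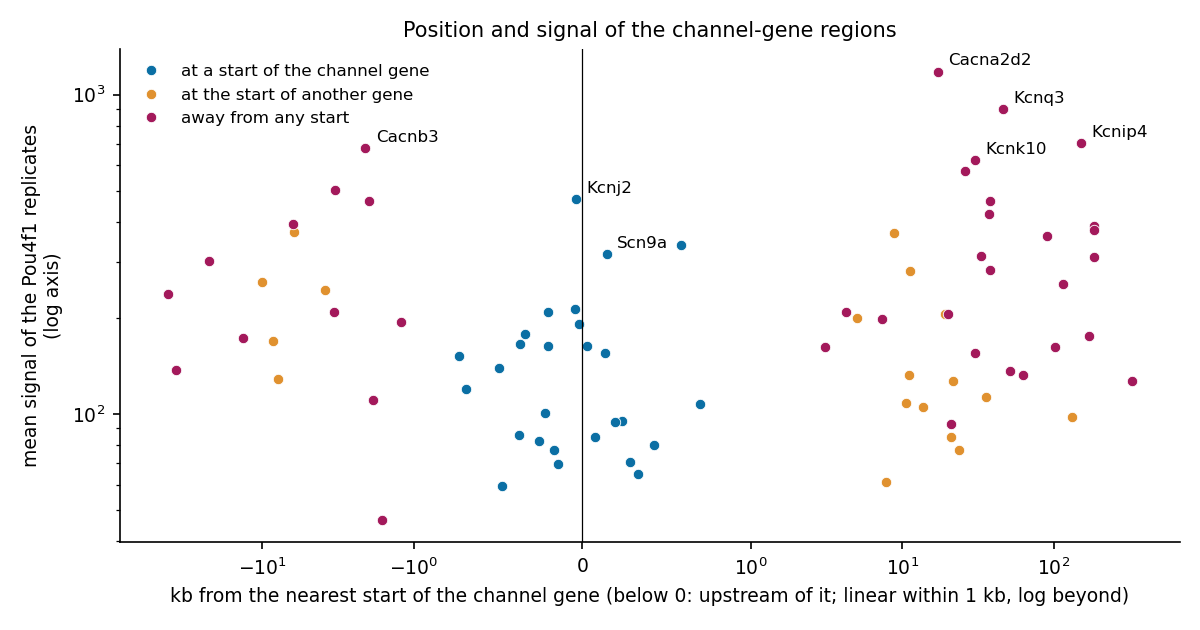
Mean signal of the Pou4f1 replicates (log axis) for each channel-gene region against its distance from the nearest start of the channel gene in kb, negative upstream, on an axis that is linear within 1 kb and logarithmic beyond. The highest points are intronic or upstream regions such as those of Cacna2d2, Kcnq3, Kcnip4 and Cacnb3, and the highest point at an own start is Kcnj2.

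In what follows, signal is given first for Pou4f1 replicates 1 and 2, then for the library named IgG and the library named Negative8. Differences are log2 differences of log2(signal + 1) ± SE from limma (n = 2 against 2), and adjusted p-values are over all regions. A library at 0 is listed at 0, no fold is given against it, and the size of its log2 difference depends on the added 1. The Pou4f1 and IgG values overlapped in none of the 82 channel-gene regions. In each family, the count of regions higher in Pou4f1 is read against the 64.8% of all regions called higher. No interval was computed for these counts. The scaling between libraries is not known. As an alternative, each library was divided by its column total, the sum over all 8038 regions. These regions were chosen for their Pou4f1 signal, so column totals are no measure of depth and lower the differences in part by construction. Of the 22 regions reported by the naming rule as higher, only those of Kcnip4, Cacna2d1, Kcna10, Kcnj6 and Scn9a were still called with column totals. All 5 are listed at 0 in both IgG libraries. A value of 0 stays 0 under any such scaling, so these calls could hardly change and do not test it. Without either Pou4f1 replicate, these 5 and Cacna2d2 were called.

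Auxiliary calcium channel subunits, which bring the pore to the membrane and tune its gating, were the family with the largest share of genes near a region. Regions were found at 11 of 16 genes (68.8%, 41.3 to 89.0%). Of the 17 regions 15 were higher in Pou4f1 (88.2%, all regions 64.8%). The median body of this family was 80.6 kb. Of other coding genes, 41.2% of those between 20 and 100 kb and 56.9% of those over 100 kb had a region. Of the alpha2delta genes Cacna2d1, Cacna2d2 and Cacna2d4 had regions and Cacna2d3 had none. All of the beta subunit genes Cacnb1 to Cacnb4 had regions, that of Cacnb1 only at the start of Rpl19. Cacng2 to Cacng5 also had regions, while Cacng1, Cacng6, Cacng7 and Cacng8 had none. Without regions at the start of another gene, 10 of the 16 genes remained. The strongest channel-gene region of the table was in intron 1 of Cacna2d2, 17.1 kb from its start (chr9:107416297-107417956). Its signal was 1085 and 1275 in Pou4f1 against 21.6 and 25.2 in IgG, which placed it at rank 9 of 8038 by mean signal. The difference was 5.6 ± 0.39 (adjusted p = 0.0029), and mean Pou4f1 signal was 50.5 times the mean of IgG. With column totals the difference was 1.6 and the call ended. The same gene, which encodes an alpha2delta subunit, had a weaker region in intron 28, with signal of 54.9 and 38.1 against 6.27 and 3.43, and a further one at the start of Tmem115.

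Cacnb3 encodes a cytoplasmic beta subunit. The region 2.10 kb upstream of it (chr15:98628153-98629338), which holds a central motif, had signal of 632 and 729.5 against 0 and 18, a difference of 7.29 ± 1.72 (adjusted p = 0.038). The Cacnb3 start itself had 133 and 67.8 against 0 and 0. In intron 4 of Cacna2d1, the alpha2delta subunit that gabapentin binds, signal was 319.9 and 525 against 0 and 0 (8.68 ± 0.47, adjusted p = 0.0022). Both Pou4f1 libraries exceeded 300 there while both IgG libraries were empty.

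The gamma family of Cacng2 to Cacng5 encodes proteins that in neurons serve mainly as auxiliary subunits of AMPA receptors. Cacng4 and Cacng5 are neighbours on chromosome 11 and both carried strong regions. Intron 1 of Cacng4 (chr11:107768046-107769120) had signal of 495 and 655 against 11.3 and 0 (7.34 ± 1.49, adjusted p = 0.029). A region 3.31 kb upstream of Cacng5 (chr11:107917541-107919191) had 414 and 587 against 14.3 and 0, and a region downstream of Cacng5 had 189.5 and 377 against 3.34 and 0. The downstream region held the motif at 2 separate places and the upstream region at 1, all outside the central 200 bp. In these 3 regions the second Pou4f1 replicate was the higher. Cacng2 had a region at its start with signal of 179 and 129.8 against 0 and 20.6 (adjusted p = 0.076) and a region in intron 1 with 161 and 149 against 0 and 0 (adjusted p = 0.0022).

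Calcium channel pore subunits had regions at 5 of 10 genes, and 5 of the 7 regions were higher in Pou4f1. These were Cacna1a and Cacna1b, which form the P/Q-type and N-type channels of nerve terminals, the L-type Cacna1c, the R-type Cacna1e and the T-type Cacna1i. None was found at Cacna1d, Cacna1f, Cacna1g, Cacna1h or Cacna1s, where Cacna1f is the L-type channel of photoreceptor terminals. Cacna1a had 2 regions in intron 1. The stronger, 37.6 kb from the start (chr8:84453016-84453829), had signal of 407 and 522 against 15.0 and 0 (6.85 ± 1.63, adjusted p = 0.039). The other had 163 and 247 against 0 and 9.86 (adjusted p = 0.039). Intron 3 of Cacna1c (chr6:118989964-118990494), with the central motif shown above, had signal of 254 and 466 against 11.5 and 48.1. Its difference was 3.8 ± 0.93 (adjusted p = 0.041). In intron 5 of Cacna1i signal was 144 and 333 against 20.3 and 11.8 (3.73 ± 0.67, adjusted p = 0.023), a replicate ratio of 2.32 that was among the 3 highest of channel-gene regions with a mean signal of at least 100. With each library divided by its column total, both of these differences were slightly below 0, at -0.18 for Cacna1c and -0.23 for Cacna1i. The region at the Cacna1b start had 128 and 86.6 against 34.7 and 0 (adjusted p = 0.14).

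Pore subunits of voltage-gated potassium channels had regions at 18 of 40 genes (45.0%, 29.3 to 61.5%). Of the 21 regions 7 were higher in Pou4f1 (33.3%, all regions 64.8%), with a median log2 difference of 4.50. In this family 10 of the 21 regions were at the gene's own start, 5 at the start of a non-channel gene and 4 in an intron. The exception in signal was Kcnq3, a subunit of the channels of the M-current that restrains repetitive firing. In its intron 1, 46.3 kb from the start (chr15:66239026-66240407), signal was 800.3 and 1002 against 17.1 and 10.3, at rank 37 of all regions, with a difference of 5.97 ± 0.48 (adjusted p = 0.0038). The difference was 2.02 with column totals, and the call ended there and without either Pou4f1 replicate. No region was near Kcnq1 or Kcnq5.

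The Shaker genes Kcna3, Kcna2 and Kcna10 lie in a row on chromosome 3, and each had 1 region. Upstream of Kcna10, a channel with a cyclic nucleotide-binding motif, signal was 359.9 and 424 against 0 and 0 (chr3:107176502-107176968, 8.61 ± 0.39, adjusted p = 0.0022). For Kcna2, an axonal delayed rectifier, the start had 95 and 76.2 against 0 and 0 (adjusted p = 0.0023), and at the start of Kcna3 it was 93.9 and 95.1 against 8.26 and 9.34 (adjusted p = 0.0088). All 3 regions passed, and the one upstream of Kcna10 had the highest signal. No region was near Kcna1, another axonal Shaker channel.

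Kcnb2 encodes a slow delayed rectifier of neuronal cell bodies. In intron 2 of Kcnb2, the site farthest from a start at 325 kb and the holder of a central motif, signal was 107 and 145 against 0 and 22.8 (4.69 ± 1.85, adjusted p = 0.091). The Kcnb2 start had 104 and 174 against 20.7 and 6.22 (adjusted p = 0.036).

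Kcnc1 and Kcnc2 encode rapidly closing channels of fast-spiking neurons, and none of their 3 regions passed the test by limma, with 1 at an unadjusted p under 0.05. The first annotated start of Kcnc1 had 99.7 and 69.4 against 0 and 12.8. The region with a central motif, at an internal start that belongs to a non-coding transcript, had 166 and 165 against 15.8 and 0 (5.34 ± 1.65, adjusted p = 0.060). The start of Kcnc2 had 132 and 107 against 0 and 19.8. In each of the 3 regions 1 IgG library was at 0.

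Among the smallest differences of all channel-gene regions were 2 of this family. In intron 2 of Kcnd3, an A-type channel, signal was 158 and 165 against 62.0 and 25.7 (1.99 ± 0.61, adjusted p = 0.060). The start of Kcnh2, the ether-a-go-go-related channel of the heart, had 209 and 94.8 against 20.1 and 52.9 (2.07 ± 0.79, adjusted p = 0.086). Divided by column totals these differences were -2.02 and -1.92. The regions assigned to Kcna7, Kcnd1, Kcnh3, Kcnh4 and Kcnh6 lay only at starts of other genes, for example that of Snrnp70 near Kcna7, with signal of 246 and 273 against 12.6 and 38.8, and that of Rab5c near Kcnh4, with 172 and 81.9 against 0 and 26.0.

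Auxiliary subunits of Kv channels had regions at 7 of 13 genes, and 7 of the 11 regions were higher in Pou4f1. All of the KChIP genes Kcnip1 to Kcnip4, calcium-binding partners of the A-type channels, had a region within 10 kb, that of Kcnip2 at the start of another gene only. Intron 1 of Kcnip4, 149.9 kb from the nearest start (chr5:49135434-49136177), had signal of 501 and 907 against 0 and 0, the largest log2 difference of any channel-gene region (9.40 ± 0.50, adjusted p = 0.0022). In intron 2 of Kcnip3 (chr2:127484004-127484953), whose product is also known as the transcriptional repressor DREAM, signal was 443 and 489 against 6.42 and 0 (7.42 ± 1.20, adjusted p = 0.019). Kcnip1 had neighbouring regions in intron 1, with 259.6 and 516 against 0 and 38.1 (adjusted p = 0.080) and with 356 and 396 against 0 and 10.2 (adjusted p = 0.031). The third region counted for Kcnip1 is the start of Kcnmb1, which lies within its body.

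Kcnab2, a cytoplasmic beta subunit of Shaker channels, had regions at 3 of its annotated starts. The values were 172 and 184 against 17.8 and 9.31 (adjusted p = 0.013), 197 and 230.1 against 0.566 and 11.7 (adjusted p = 0.035), and 223 and 103 against 9.43 and 34.1 (adjusted p = 0.057). The last start is shared with Nphp4, and its replicate ratio of 0.463 was among the 3 lowest of channel-gene regions with a mean signal of at least 100. Its difference of 3.0 became -0.96 with column totals. The Kcne1l start had 129 and 31.3 against 0 and 27.7 (adjusted p = 0.19), and the genes Kcne1 to Kcne4 had no region.

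Calcium- and sodium-activated potassium channels and their subunits had regions at 6 of 12 genes, and 6 of the 9 regions were higher in Pou4f1. Kcnma1, the pore of the large-conductance BK channel, had 3. In intron 25 signal was 261 and 357 against 5.81 and 0 (6.87 ± 1.17, adjusted p = 0.020), and in intron 22 it was 153 and 197 against 0 and 0 (adjusted p = 0.0022). Its start had 120.0 and 70.2 against 0 and 9.80 (adjusted p = 0.057). The start of Kcnmb1, a BK beta subunit best known from smooth muscle, had signal of 336 and 342 against 0 and 9.53 (6.71 ± 1.39, adjusted p = 0.030).

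The SK channel genes Kcnn1, Kcnn2 and Kcnn3, which carry afterhyperpolarisation currents, all had regions. Signal was 207 and 182 against 0 and 0 upstream of Kcnn3 (adjusted p = 0.0022), 208 and 209 against 16.4 and 50.4 at the start of Kcnn2 (adjusted p = 0.044), and 133 and 87.7 against 9.59 and 11 upstream of Kcnn1 (adjusted p = 0.013). A further region near Kcnn1, at the start of Arrdc2, had 339 and 219.6 against 57.4 and 12.6 (3.28 ± 0.94, adjusted p = 0.053, and -0.70 with column totals). No region was near the sodium-activated Kcnt1 and Kcnt2.

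Inward rectifiers, which hold the resting potential, had regions at 6 of 15 genes, and 6 of the 7 regions were higher in Pou4f1. The strongest own-start region of all channel genes was that of Kcnj2, a strong rectifier (chr11:111065633-111066616). Signal was 544 and 399.7 against 12.4 and 21.2, a difference of 4.76 ± 0.50 (adjusted p = 0.0072), at rank 419 of all regions. Kcnj6, a G protein-gated channel subunit, had a region in an exon that is the 3′ end of 1 short transcript and intron in the others, with signal of 284 and 341 against 0 and 0 (8.29 ± 0.39, adjusted p = 0.0022) and a central motif. Its relatives Kcnj3 and Kcnj5 had weak regions that passed, with 66.3 and 52.8 against 8.15 and 15.5 at the Kcnj3 start (adjusted p = 0.035) and 94.0 and 91.6 against 0 and 0 in intron 2 of Kcnj5 (adjusted p = 0.0022). Near Kcnj14 the regions were at the starts of Cyth2, with 424 and 313 against 10.3 and 50.4 (adjusted p = 0.040, and a difference of -0.050 with column totals), and of Grwd1, with 203 and 540.1 against 0 and 33 (adjusted p = 0.079). The latter had the highest replicate ratio of channel-gene regions with a mean of at least 100, 2.66.

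K2P leak channels had regions at 3 of 14 genes (21.4%, 4.66 to 50.8%), and 4 of the 6 regions were higher. Kcnk10, a mechanosensitive leak channel, had a region in intron 2 (chr12:98501225-98502461) with signal of 541 and 702 against 9.86 and 33.8 (4.99 ± 0.77, adjusted p = 0.017) and a weaker region at its start with 205 and 178 against 2.92 and 5.32 (5.27 ± 0.47, adjusted p = 0.0049). The intron region had the higher Pou4f1 signal and the start region the lower IgG signal. Near Kcnk4 the start of Esrra had 228 and 171 against 14.6 and 0 (adjusted p = 0.053). The start of Kcnk12 had the smallest difference of all channel-gene regions, with signal of 96.3 and 33.5 against 22.1 and 13.2 (1.68 ± 0.75, adjusted p = 0.12), and it was below 0 when IgG was multiplied by 4 (-0.26) and with column totals (-2.27).

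Sodium channel genes, despite a median body of 103 kb, had regions at 3 of 14 genes (21.4%, 4.66 to 50.8%), and 2 of the 3 regions were higher in Pou4f1. At the start of Scn9a, a channel best known from peripheral sensory neurons (chr2:66634453-66635162), signal was 334 and 298 against 0 and 0 (8.31 ± 0.38, adjusted p = 0.0022). At the start of Scn3b, a beta subunit, it was 163 and 163 against 0.761 and 9.17 (5.28 ± 1.07, adjusted p = 0.029). No region of the table lay within 10 kb of Scn1a, Scn2a, Scn3a or Scn8a, the principal pore subunits of central neurons, or of the beta subunit Scn2b.

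HCN channels had regions at 2 of 4 genes and both were higher in Pou4f1. At the start of Hcn4, the pacemaker channel of the sinoatrial node, signal was 113 and 51.8 against 5.96 and 0 (4.88 ± 1.24, adjusted p = 0.044).

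The Pou4f1 replicates differed by position of the region. Divided by that of replicate 1, the signal of replicate 2 had a median of 0.997 over channel-gene regions and 0.810 over all regions. At own starts it was 0.735, with replicate 2 the lower in 20 of 27 regions, and away from starts it was 1.24, with replicate 2 the higher in 29 of 37. Over all regions the medians were 0.701 at starts and 1.16 away from them. Base composition moved with the same split, with a median GC content of 62.8% in channel-gene regions at a start and 49.6% in those away from one (62.7% and 49.0% over all regions). The part of base composition in the ratio was not tested.

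**Figure D4:**
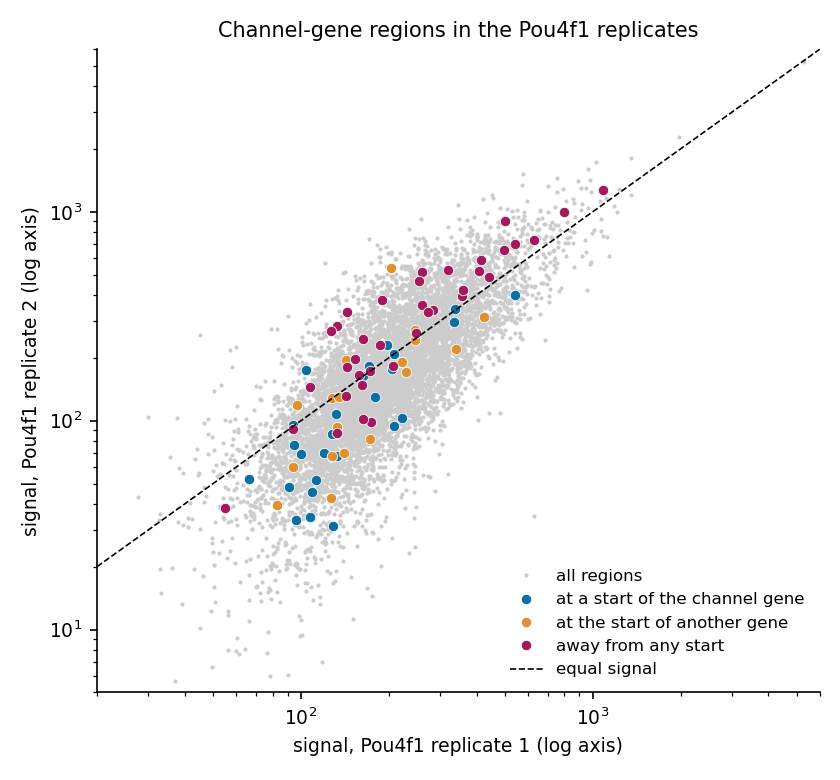
Signal of the Pou4f1 replicates in each region on log axes, with all regions in grey, channel-gene regions coloured by position and the dashed line at equal signal. Channel-gene regions away from any start lie mostly above the line (29 of 37) and those at a start of the channel gene mostly below it (20 of 27).

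Genes whose products work with the channels were counted from a list of 32 drawn from textbook knowledge. Of these, 18 had a region (34.8% of all coding genes did), with 35 regions in all, of which 21 were higher in Pou4f1 by limma and none lower (0 also at an unadjusted p under 0.05), at a median log2 difference of 5.18. Over all regions 64.8% were higher, at a median of 5.22. The median body of the 32 genes was 94.4 kb, against 17.3 kb for all coding genes. Of other coding genes, 41.2% of those between 20 and 100 kb and 56.9% of those over 100 kb had a region. Among the 35 regions, 1 was also a channel-gene region, that at the start of Rpl19 counted for both Stac2 and Cacnb1. Scaffold and adhesion proteins that hold channels at the axon initial segment and node had regions at 7 of 7 genes (Ank2, Ank3, Sptbn4, Nfasc, Nrcam, Cntnap1 and Cntnap2), and 13 of their 20 regions were higher. These genes are long, with a median body of 273 kb, and of other coding genes over 100 kb 56.9% had a region. In Cntnap2, which anchors Shaker channels beside the node, the strongest region had signal of 769 and 819.7 against 12.0 and 0 (7.78 ± 1.51, adjusted p = 0.027), but another region of this gene had 54.5 and 33.9 against 59.9 and 52.2. Of the potassium channel partners, Dpp6, which sets the gating of A-type channels, had 376 and 569 against 13.8 and 0 in its stronger region (adjusted p = 0.037). Of the FGF homologous factors, which modulate sodium channels, only Fgf12 had regions, and in 2 of its 3 regions both IgG libraries lay above both Pou4f1 libraries. These had 82.7 and 78.1 against 140.8 and 234, and 85.0 and 58.2 against 139.5 and 226, and neither difference passed the test (adjusted p = 0.096 and 0.087). Over all regions both Pou4f1 libraries lay below both IgG libraries in 1.46 percent.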

How the data were processed

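Per the study's methods, the authors trimmed and masked the reads, mapped them to mm10 with Bowtie2 2.4.5 and ran SEACR (relaxed mode) to call regions. The deposited values are signal, 1 for each region and library. Scaling, sequencing depth and any pooling of replicates for the calls were not stated. One control column is named IgG and the other Negative8, a name that no sample title carries. Rabbit IgG being the only negative control of the study, the column named Negative8 was taken as the second IgG library. No further scaling was applied. Pou4f1 (n = 2) was tested against IgG (n = 2) with limma 3.58.1 under R 4.3.3 after adding 1 and taking log2, with no covariate, Benjamini-Hochberg adjustment over 8038 regions and a threshold of 0.05. The script was run on simulated data with normal noise whose spreads were shuffled across regions. That run therefore does not cover the tie between IgG values of 0 and spread. The study calls its replicates independent, but whether each came from its own pool of animals is not spelled out, so p-values measure the spread between libraries, which may be technical.

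Gene models came from GENCODE M21, and sequence came from GRCm38.p6. A region was at a start when its midpoint lay within 1 kb of any annotated start. Coordinates are 1-based. Intervals are exact (Clopper-Pearson, 95%) and cover counting error only. The naming rule takes, in each family, the 3 regions of highest mean Pou4f1 signal, every region with a central motif, the 3 largest and 3 smallest log2 differences, and the 3 highest and 3 lowest replicate ratios at a mean signal of at least 100. It also takes genes with 4 or more regions and regions whose Pou4f1 and IgG values overlap, and there were none. Some genes are not reported by name here, and counts include them. Other regions named were chosen after their values were seen. The members and lists were chosen with earlier results of these data known. Alternatives changed the scaling, pseudocount, filters, distances, motif and libraries used. Python 3.11.15 (pandas 2.3.3, numpy 2.4.6, matplotlib 3.10.9, scipy 1.17.1) was used for the rest.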

Additional observations from a re-analysis of the deposited data

How the results depend on the processing

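The count of channel-gene regions higher in Pou4f1, 53 of 82 with a median log2 difference of 5.06, depended on the scaling between libraries, which the deposited table does not settle. The count was 26 with IgG multiplied by 2, 20 (median 3.88) with IgG multiplied by 4, 16 (2.34) with each library divided by its column total, 29 (6.38) with a pseudocount of 0.1 and 77 (3.39) with one of 10. Column totals, which are sums over regions chosen for their Pou4f1 signal, moved the median of all regions from 5.22 to 2.74. Leaving out each library in turn gave counts from 19 to 80 and medians from 4.97 to 5.67, with the lone library of a group assumed to vary like the others. A trend of spread on level gave 55, and the filters on low signal and on length gave 53. At own starts 14 of 27 regions passed and over gene bodies 38 of 56. Without regions at the start of a non-channel gene, which was tried only once the values were known, 45 of 64 passed. No alternative called a channel-gene region lower.

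With column totals the log2 difference was below 0 in 9 of the 33 reported regions that the naming rule gave, at -0.23 in Cacna1i, -2.27 in Kcnk12 (-0.26 with IgG multiplied by 4), -2.02 in Kcnd3, -0.96 at the Kcnab2 start shared with Nphp4, -1.92 in Kcnh2, -0.18 in Cacna1c, -0.50 near Kcna7, -0.050 near Kcnj14 (Cyth2 start) and -0.70 near Kcnn1. Of the 22 called regions among these 33, column totals ended the call in 17, among them Cacna2d2, Kcnq3, Kcnj2, Kcnk10 and Cacnb3. IgG multiplied by 2 or 4 ended it in 12 and 13, a pseudocount of 0.1 in 10 and leaving out either Pou4f1 replicate in 16, and the other alternatives in none. Part of the change with column totals follows from how they are built, and the cause of the rest was not tested.

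The share of channel genes with a region, 44.2%, was 31.2% for overlap with the gene body, 61.6% within 50 kb, 17.4% at an own start, 23.2% for regions in the upper part of all by Pou4f1 signal and 35.5% without regions only at the start of another gene, the last also tried later. The share of regions at a start, 54.9%, was 35.0% for regions in the upper part by signal. The share with the motif, 6.10%, was 15.9% in the central 400 bp, 21.95% over the whole region and 1.22% for ATA, ATT and AAT in a row. No paired analysis was possible because the IgG columns carry no replicate number.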
